A study of Mus musculus with 20 samples.

Results

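The transcription factor p53, encoded in the mouse by *Trp53*, is stabilized when DNA is damaged or replication stalls, and it then switches on genes that stop the cell cycle, repair DNA or lead to cell death. Loss of the RNase H2 enzyme leaves ribonucleotides in genomic DNA, and in fibroblasts lacking it p53-inducible genes such as *Cdkn1a* are known to rise. Mdm2, itself a p53 target, marks p53 for degradation and so closes the loop. Here 32 genes, *Trp53* itself and 31 of its known targets, were followed in 2 tables made from mouse Mvt1 mammary carcinoma cells after knockdown of *Rnaseh2c*, which encodes a subunit of RNase H2. The genes were chosen by name with earlier results of these data known, so contrasts of the list with all genes are descriptions. All 32 were listed among the 20188 genes of the tumor table and the 50667 Ensembl genes of the cell table.

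The cells had been transduced with a scramble control shRNA (scr, labelled wild type) or with an shRNA against *Rnaseh2c* (sh4, labelled *Rnaseh2c* knockdown) and were kept under puromycin, so both groups carry a vector and its selection marker. Total RNA was sequenced from 3 plates of cultured cells per group, and mRNA from 3 primary mammary tumors per group, taken 30 days after implantation into FVB mice, each of 3 experiments giving 1 tumor per group. Values are FPKM for the cells and RPKM for the tumors, both scaled to gene length and sequencing depth, and read numbers are unknown for both tables. The study also holds 8 exome samples of lung metastases, for which no expression values were analysed here. A single shRNA sequence was compared with a single control, and effects of that shRNA other than the knockdown cannot be told apart from it. Plates of one transduced line share their origin, so p-values for the cells measure the spread between plates and nothing wider.

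The target of the shRNA was examined first. *Rnaseh2c* (chromosome 19 of mm9, 5601873 to 5603439) was at 5.83, 7.06 and 5.34 FPKM in scr 1 to 3 and 3.19, 5.36 and 4.28 FPKM in sh4 1 to 3 of cultured cells. The groups overlapped, as sh4 2 lay just above scr 3, and the difference was -0.48 on the log2 scale (SE 0.18, limma adjusted p = 0.236; exact two-sided permutation test, p = 0.2). In tumors *Rnaseh2c* was at 26.9, 52.0 and 25.9 RPKM in scr 1 to 3 and 10.2, 22.4 and 19.8 RPKM in sh4 1 to 3, with all sh4 tumors below all scr tumors (log2 fold change -0.98, limma adjusted p = 0.995; exact permutation test, two-sided, p = 0.1, and 3 values against 3 cannot give less). With the experiment fitted as a block the standard error in tumors was 0.23 in place of 0.37. The unadjusted limma p was then 0.00402 in place of 0.0292, and the limma adjusted p 0.603. Exons of *Rnaseh2c* overlap those of *Kat5* on the opposite strand, and whether reads were counted by strand is not given in the sources used here. The epithelial keratins *Krt8* and *Krt18* were high in both tables, while *Epcam* and *Cdh1*, which also mark epithelium, were at most 0.0228 FPKM in any library of cultured cells.

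p53 binds a response element of 2 abutting decamers, each with a conserved C and G in its core. The region from 2500 bases before to 2500 bases after the 5′ end of each gene (GENCODE vM1, mm9) was searched on both strands, which read alike for this palindromic element, for 20 bases with all 4 core positions intact and at most 2 mismatches elsewhere. Such a match stood near 11 of the 32 genes (34.4%), against 1085 of 22380 protein-coding genes (4.8%). A match is a description of the letters and not a site of measured binding, and the list was chosen as p53 targets, so the higher share is no finding. Matches are printed for the 3 genes called in cultured cells (*Perp*, *Eda2r* and *Fas*), for *Cdkn1a*, the best known p53 target, for *Ccng1*, the most abundant of the 32 transcripts in those cells, and for *Zmat3*, the gene on the list with no mismatch. They are written 5′ to 3′ on the strand of the gene, with the 20 matching bases in capitals and 5 bases of flank on each side.
Cdkn1a at chr17:29227868-29227897: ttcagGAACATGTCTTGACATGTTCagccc
Ccng1 at chr11:40568959-40568988: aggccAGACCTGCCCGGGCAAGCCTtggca
Perp at chr10:18562835-18562864: ctcacATTCTAGCCCAGGCTTGCCCagaat
Eda2r at chrX:94571868-94571897: tgcctGGGCAAGTCCGGGCCTGTGTaaaaa
Fas at chr19:34366849-34366878: tggcaGGGCATGTACAAACATGTCAtcttg
Zmat3 at chr3:32263248-32263277: gtgagAAACAAGCCCAGGCATGTCTtggga
The *Cdkn1a* and *Ccng1* matches lie upstream of the annotated gene, centred 42 and 160 bases before its start, and that of *Perp* lies 2028 bases before it. *Ccng1* has another match with 1 mismatch, not printed, in an intron 366 bases after its start. Those of *Eda2r*, *Fas* and *Zmat3* fall in introns, 673, 1714 and 1338 bases after the start of the gene. *Cdkn1a*, *Ccng1*, *Perp*, *Eda2r*, *Fas* and *Zmat3* differ from the consensus at 1, 1, 2, 2, 2 and 0 of the 20 positions.

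In cultured cells 3 of the 30 p53 genes that could be tested changed, *Perp* and *Eda2r* being higher and *Fas* lower in sh4 cells at an adjusted p under 0.05 (limma on log2(FPKM + 0.5), Benjamini-Hochberg adjustment over 21106 genes). Over all genes tested 270 were called, or 1.28%, of which 0.521% were higher and 0.758% lower. All 3 stand in the cell death group of the list. None of the cell cycle arrest, repair or metabolism genes passed here. With median-ratio scaling, which called 5.83% of all genes, 4 cell cycle arrest genes (3 higher, 1 lower) and 1 metabolism gene did. At an unadjusted p under 0.05 there were 17 p53 genes against 18.9% of all genes, 13 of them higher (9.55% of all genes) and 4 lower (9.33%). The median log2 fold change over the 30 was 0.09, and -0.0022 over all genes. Of the 30, 20 were positive (49.6% of all genes were) and 10 negative. When every plate was rescaled to one sum the split turned to 14 and 16. The medians were then -0.0095 over the 30 and -0.0799 over all genes. *Pmaip1*, which encodes the BH3-only protein Noxa, and *Gdf15*, a secreted stress cytokine, stayed under 0.1 FPKM in every library of cultured cells and were not tested.

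*Perp*, a membrane protein of desmosomes that p53 induces during apoptosis, had the largest difference of the 30. It was at 43.0, 47.8 and 49.8 FPKM in scr 1 to 3 and 80.7, 81.6 and 76.0 FPKM in sh4 1 to 3. The lowest sh4 plate was well above the highest scr plate, and the means were 46.9 ± 3.48 and 79.4 ± 3.03 FPKM (SD, n = 3), a log2 fold change of 0.76 (SE 0.07, limma adjusted p = 0.0181). *Eda2r*, a member of the TNF receptor family encoded on the X chromosome, was at 8.47, 9.56 and 9.76 FPKM in scr 1 to 3 and 12.9, 12.7 and 12.4 FPKM in sh4 1 to 3. The sh4 plates lay close together and above all scr plates, with a log2 fold change of 0.43 (SE 0.07, limma adjusted p = 0.0454). *Fas*, the death receptor for Fas ligand, went the other way, at 2.07, 2.02 and 2.10 FPKM in scr 1 to 3 and 1.24, 1.21 and 1.42 FPKM in sh4 1 to 3. All sh4 values were below all scr values, and the log2 fold change was -0.52 (SE 0.07, limma adjusted p = 0.041). Over 16 other settings of the analysis *Perp* kept its call in 10, and *Eda2r* and *Fas* kept theirs in 7 each, with adjusted p from limma between 0.00154 and 0.214 for *Perp*, 0.00775 and 0.259 for *Eda2r*, and 0.0197 and 0.252 for *Fas*. Leaving out scr 1 kept *Perp* and *Eda2r* but not *Fas* (adjusted p = 0.0582), and leaving out any other plate, which also cut the calls over all genes to between 2 and 18, left 0 p53 genes called. The fold changes moved little by comparison, from 0.70 to 0.80 for *Perp*, from 0.37 to 0.47 for *Eda2r* and from -0.57 to -0.49 for *Fas* when 1 plate was left out.

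The plot of cultured cells by library shows the 30 genes side by side.

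**Figure D1:**
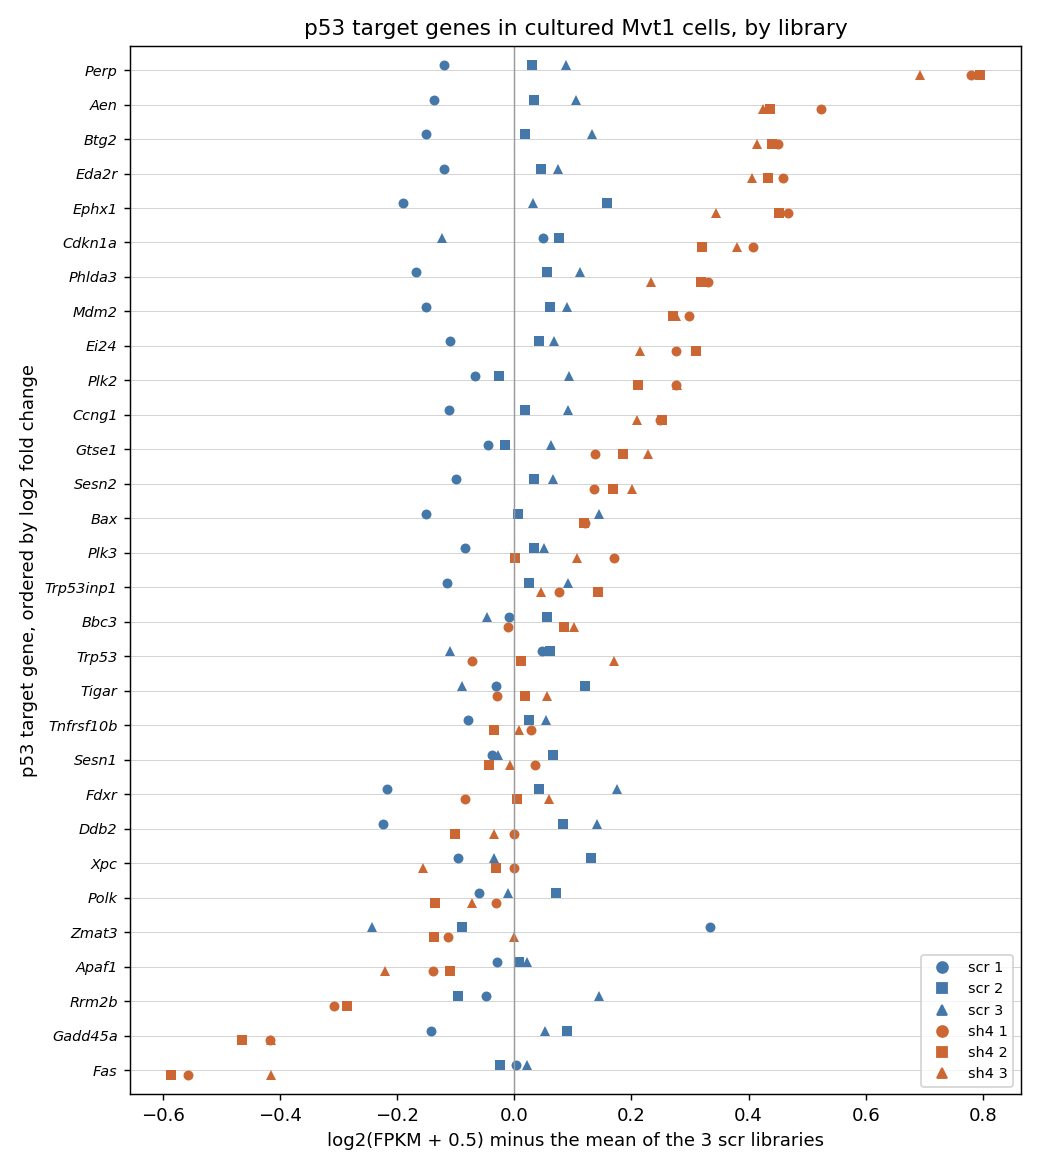
Values of the 30 tested p53 target genes in the 6 libraries of cultured Mvt1 cells, as log2(FPKM + 0.5) minus the mean of the 3 scr libraries (x axis), with genes ordered by log2 fold change (y axis). Each point is 1 library; in 13 genes all sh4 points lie to the right of all scr points, and in 4 all lie to the left.

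Of the 2 regulators, *Trp53* itself was at 10.6, 10.7 and 9.44 FPKM in scr 1 to 3 and 9.70, 10.3 and 11.6 FPKM in sh4 1 to 3. The groups overlapped, with a log2 fold change of 0.04 (SE 0.08). p53 is regulated mainly as a protein, which was not measured here. *Mdm2* was at 27.3, 31.7 and 32.3 FPKM in scr 1 to 3 and 37.4, 36.7 and 36.8 FPKM in sh4 1 to 3. Each sh4 plate exceeded each scr plate, at a log2 fold change of 0.28 that did not pass the test (limma adjusted p = 0.125).

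None of the 7 genes of cell cycle arrest passed, and 6 of them had a positive log2 fold change (5 after rescaling to one sum, where *Plk3* was at -0.0025). *Cdkn1a*, the cyclin-dependent kinase inhibitor p21 and the best known p53 target, was at 8.55, 8.72 and 7.53 FPKM in scr 1 to 3 and 11.1, 10.4 and 10.9 FPKM in sh4 1 to 3. Its groups did not overlap, and the log2 fold change of 0.37 (SE 0.07) had a limma adjusted p of 0.0673. *Btg2*, an antiproliferative cofactor of mRNA decay, was at 6.43, 7.29 and 7.94 FPKM in scr 1 to 3 and 10.0, 9.94 and 9.75 FPKM in sh4 1 to 3 (log2 fold change 0.43, limma adjusted p = 0.0641). *Ccng1*, or cyclin G1, was at 109.8, 120.2 and 127 and 141, 141 and 137 FPKM in scr and sh4 1 to 3, and *Plk2*, a Polo-like kinase, at 16.4, 16.9 and 18.4 and 20.9, 19.9 and 20.9 FPKM. Both stood higher in every sh4 plate than in any scr plate (log2 fold changes 0.24 and 0.26, limma adjusted p = 0.149 and 0.0995), as did *Gtse1*, a G2 phase protein that binds p53 (log2 fold change 0.18). *Plk3*, another Polo-like kinase, overlapped between the groups (log2 fold change 0.09). *Gadd45a*, which encodes a stress sensor that binds p21 and PCNA, stood apart from the other 6, at 13.0, 15.3 and 14.9 FPKM in scr 1 to 3 and 10.6, 10.3 and 10.6 FPKM in sh4 1 to 3. All sh4 plates were below all scr plates, with a log2 fold change of -0.43 (SE 0.07, limma adjusted p = 0.0535). Exons of *Gadd45a* overlap those of *E230016M11Rik* on the opposite strand, and the same holds for *Plk3* (*Tctex1d4*), *Ei24* (*Gm16881*), *Ddb2* (*Acp2*) and *Tigar* (*Gm17701*), so reads of these pairs may be mixed.

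The 12 genes of cell death that were tested ranged from -0.52 to 0.76 on the log2 scale, with 9 positive (6 after rescaling to one sum). Next to *Perp* and *Eda2r*, *Aen*, a nuclease that cuts DNA in apoptosis, was at 7.71, 8.74 and 9.21 FPKM in scr 1 to 3 and 12.5, 11.7 and 11.6 FPKM in sh4 1 to 3. It just missed the threshold (log2 fold change 0.46, limma adjusted p = 0.0507). *Phlda3*, an inhibitor of Akt, and *Ei24*, a protein of the endoplasmic reticulum, also had no overlap between the groups (log2 fold changes 0.29 and 0.27, limma adjusted p = 0.144 and 0.111). *Bax*, which opens the outer mitochondrial membrane, was at 21.4, 23.9 and 26.4 FPKM in scr 1 to 3 and 25.9, 25.9 and 25.9 FPKM in sh4 1 to 3, and its sh4 values fell inside the scr range (log2 fold change 0.12). *Bbc3*, the BH3-only protein Puma, overlapped as well (log2 fold change 0.06), and *Apaf1*, the scaffold of the apoptosome, lay lower in all sh4 plates without passing (log2 fold change -0.16, limma adjusted p = 0.22). The receptor for the death ligand TRAIL, *Tnfrsf10b*, was at 34.7, 37.3 and 38.1 FPKM in scr 1 to 3 and 37.4, 35.8 and 36.9 FPKM in sh4 1 to 3. The groups overlapped, with a log2 fold change of 0.0006 (SE 0.06), in the same cells in which the receptor genes *Eda2r* and *Fas* differed in opposite directions. *Trp53inp1*, a stress protein that promotes p53 activity, and *Zmat3*, an RNA-binding protein, had log2 fold changes of 0.09 and -0.08 with overlapping groups. For *Zmat3* scr 1 stood above the other 5 plates, at 7.57 FPKM.

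All 4 genes of DNA repair and nucleotide supply had negative log2 fold changes (3 of 4 without scr 2 or without scr 3), and none passed. *Rrm2b*, the p53-inducible subunit of ribonucleotide reductase that supplies deoxyribonucleotides outside S phase, was at 2.95, 2.84 and 3.44 FPKM in scr 1 to 3 and 2.38, 2.42 and 2.42 FPKM in sh4 1 to 3. Every sh4 plate lay below every scr plate (log2 fold change -0.29, limma adjusted p = 0.131). The damage recognition genes *Xpc* and *Ddb2* and the translesion polymerase *Polk* overlapped between the groups, at log2 fold changes of -0.06, -0.05 and -0.08. Among the 5 tested genes of metabolism and stress, *Ephx1*, the microsomal epoxide hydrolase, was at 12.5, 16.1 and 14.7 FPKM in scr 1 to 3 and 20.1, 19.8 and 18.4 FPKM in sh4 1 to 3. It was higher in all sh4 plates without passing (log2 fold change 0.42, limma adjusted p = 0.0955). *Sesn2*, a brake on mTORC1, did not overlap either (log2 fold change 0.17), while its relative *Sesn1*, the glycolysis regulator *Tigar* and the mitochondrial reductase *Fdxr* lay between -0.0063 and 0.02.

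In sum over the list in cultured cells, the sh4 plates lay above all scr plates for 13 of 30 genes, where 13.6% of all genes did so, and below for 4, where 13.8% did. These shares depend on the scaling of the plates. FPKM of Ensembl genes summed to 659082, 789838 and 824533 in scr 1 to 3 and to 785372, 864566 and 789439 in sh4 1 to 3, and scr 1 was the lowest plate for 18 of the 30 genes (33.8% of all genes). After rescaling of every plate to one sum, 14 of the 30 were positive and 16 negative with a median of -0.0095. The median of all genes moved down as well, from -0.0022 to -0.0799. Of the calls over all genes 18.7% were higher in sh4 in place of 40.7%. *Perp* was still called and *Gadd45a* was newly called lower, while *Eda2r* (0.33) and *Fas* (-0.60) kept their direction and missed the threshold. With median-ratio scaling 12 of the 30 were called, 10 higher and 2 lower, against 5.83% of all genes.

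The 9 tested genes with a p53 element match described above, leaving aside *Pmaip1*, were 7 positive and 2 negative in cultured cells with a median log2 fold change of 0.24, and the 21 without were 13 positive and 8 negative with a median of 0.04. All 3 genes called had a match. In the tumors, again leaving aside *Pmaip1*, the 10 genes with a match were 5 positive and 5 negative (median -0.03). The 21 without were 5 positive and 16 negative (median -0.18), and 0 were called in either set. These differences were not tested.

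Genes around p53 were then read from the same fit. Of 16 tested genes that act on p53 or beside it, such as its kinases and deacetylases, 0 passed (2 at an unadjusted p under 0.05, as had 18.9% of all genes). *Usp7*, which removes ubiquitin from p53 and Mdm2, was at 8.24, 8.61 and 9.07 FPKM in scr 1 to 3 and 9.60, 9.35 and 9.97 FPKM in sh4 1 to 3, and *Chek1*, a checkpoint kinase, had a log2 fold change of 0.21. Both were higher in all sh4 plates without passing (limma adjusted p = 0.233 and 0.25). *Cdkn2a*, whose product p19Arf restrains Mdm2, was listed at 0 in all 6 libraries, as was the p53 relative *Trp73*.

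Among 25 tested genes of a further list of p53 targets 4 were called (1.28% of all genes), 1 higher (0.521%) and 3 lower (0.758%). *Cd82*, a tetraspanin known to suppress metastasis, had the largest difference, at 4.63, 4.71 and 4.37 FPKM in scr 1 to 3 and 2.09, 2.05 and 1.83 FPKM in sh4 1 to 3. The sh4 values were less than the scr values in every plate (log2 fold change -1.03, SE 0.07, limma adjusted p = 0.00798). *Thbs1*, the antiangiogenic matrix protein thrombospondin 1, was at 22.8, 23.1 and 22.4 FPKM in scr 1 to 3 and 14.5, 14.8 and 14.6 FPKM in sh4 1 to 3 and was lower too (log2 fold change -0.62, limma adjusted p = 0.00798). *Zfp365*, a zinc finger gene, was higher (log2 fold change 0.41, limma adjusted p = 0.0373). The median of this list was -0.03, with 10 positive and 15 negative. With 1 plate left out *Cd82* passed in 4 of 6 fits, without scr 1 or without any 1 of the sh4 plates, while *Thbs1* and *Zfp365* passed in 1 of 6, the fit without scr 1.

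Cell cycle genes that p53 lowers through p21 and the DREAM repressor complex stood mostly on the higher side in sh4 cells without passing. Of 20 such genes 18 had a positive log2 fold change (14 after rescaling to one sum), the median was 0.16 and 0 passed. At an unadjusted p under 0.05 there were 6 (18.9% of all genes), 5 of them higher (9.55%) and 1 lower (9.33%). The sh4 plates lay above all scr plates for 10 of the 20 (13.6% of all genes) and below for 1 (13.8%). With median-ratio scaling, which called 5.83% of all genes, 3 of the 20 passed as higher and 1 as lower. *Mybl2*, a transcription factor of the S and G2 phases, was at 3.24, 3.80 and 3.77 FPKM in scr 1 to 3 and 4.82, 4.46 and 4.40 FPKM in sh4 1 to 3 (log2 fold change 0.30, limma adjusted p = 0.119), and *Ccnb1*, or cyclin B1, had one of 0.27 (limma adjusted p = 0.152). The integrated stress response, which can raise *Sesn2*, *Gadd45a* and *Tnfrsf10b* without p53, had 0 of 12 genes called (4 at an unadjusted p under 0.05, against the same 18.9%). The list holds *Sesn2* too. Among its genes 9 were positive and 3 negative (7 and 5 after rescaling to one sum). Their median was 0.11, next to 0.09 over the 30 p53 genes (0.02 and -0.0095 after rescaling). The stress response genes with the smallest p were *Chac1*, a glutathione-degrading enzyme (log2 fold change -0.31, limma adjusted p = 0.216), and *Sesn2*. Immediate early genes were 7 positive and 2 negative, at a median of 0.21 (0.10 after rescaling, with the same split). Differences between the lists were not tested. Of 9 immediate early genes 1 passed (1.28% of all genes), the AP-1 subunit *Jun* at 7.49, 8.70 and 9.05 FPKM in scr 1 to 3 and 12.5, 12.8 and 13.1 FPKM in sh4 1 to 3 (log2 fold change 0.58, limma adjusted p = 0.0362), which with 1 plate left out passed in the fit without scr 1 and in none of the other 5.

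**Figure D2:**
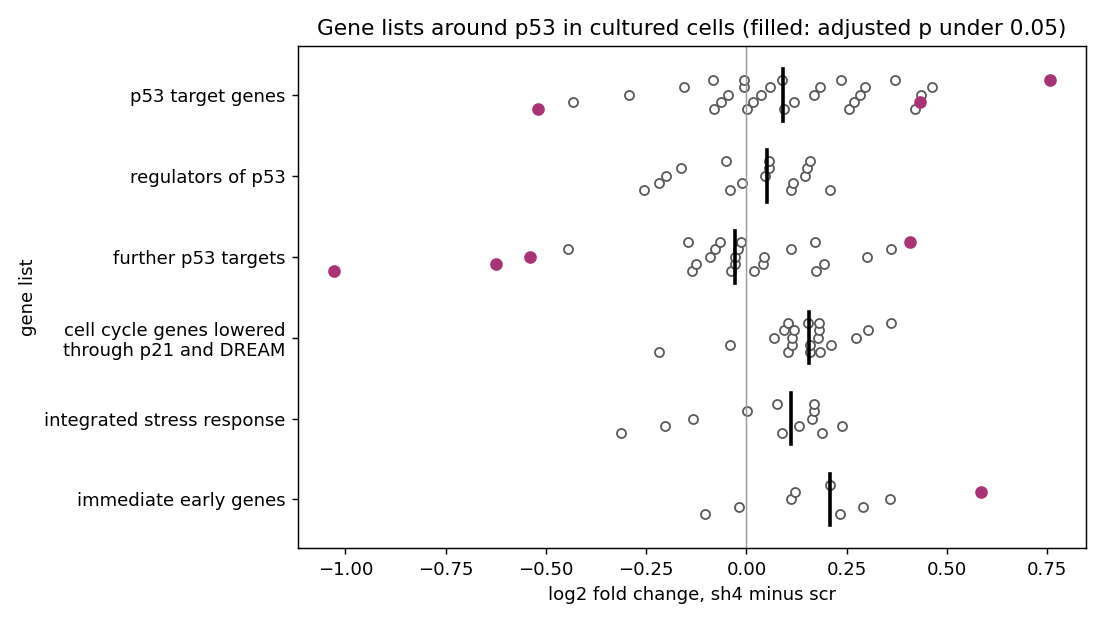
Log2 fold changes (sh4 minus scr, x axis) of the genes of 6 lists in cultured Mvt1 cells (y axis), with 1 point per gene, filled where the adjusted p is under 0.05, and a bar at the median. Filled points are 3 p53 target genes, 4 genes of the further list and *Jun*.

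In primary tumors no p53 gene passed the test. Limma called 0 of 32 at an adjusted p under 0.05, and 0 of 13487 genes in all, or 0%. In tests on simulated data, the tumor fit recovered 2% of 50 genes changed by 0.5 on the log2 scale. It recovered 20% of 50 changed by 1, and the cell fit recovered 46% and 86%. Changes of these sizes in the tumors could therefore go uncalled. At an unadjusted p under 0.05 there were 0 p53 genes and 564 genes in all, or 4.18%. The median log2 fold change of the 32 was -0.14 and that of all genes -0.0429, with 11 of the 32 positive (42.6% of all genes were) and 21 negative, a split that turned to 20 and 12 without sh4 2. Tumors hold stromal and immune cells beside Mvt1 cells, and fewer cells of a type and less RNA per cell cannot be told apart in these values. Summed RPKM of 8 T cell markers was 24.0 to 34.6 in scr and 52.1 to 89.6 in sh4 tumors. In 6 of the 8 all sh4 tumors lay above all scr tumors, as did 4.19% of all genes. Sums of 5 adipocyte markers were 23.6 to 1666 in scr and 34.4 to 227 in sh4, and of 6 epithelial markers 586 to 1104 and 414 to 743. Those of 5 endothelial markers were 12.3 to 16.9 and 14.8 to 33.4, highest in sh4 1. For 4 B cell markers they were 2.06 to 2.92 and 3.17 to 4.54. For 7 macrophage markers they were 1432 to 1701 and 1605 to 2088, and for 5 fibroblast markers 234 to 633 and 322 to 799. The highest adipocyte and epithelial sums were both in scr 2, and the next highest adipocyte sum was 227 in sh4 1. The part of the cell mix in the values of the p53 genes was not tested.

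*Perp* again had the largest positive difference, but a single tumor carried it. It was at 5.68, 8.60 and 5.28 RPKM in scr 1 to 3 and 24.5, 7.34 and 7.46 RPKM in sh4 1 to 3. sh4 1 stood far above the other 5 tumors, whose groups overlapped, and the log2 fold change of 0.75 had a standard error of 0.46 (limma adjusted p = 0.995). Without sh4 1 it was 0.20. *Eda2r* showed the same high sh4 1 value, at 2.39, 1.39 and 2.63 RPKM in scr 1 to 3 and 5.06, 0.808 and 1.44 RPKM in sh4 1 to 3, with sh4 2 the lowest of all 6 (log2 fold change -0.09, SE 0.51). *Fas* was at 13.3, 4.33 and 8.53 RPKM in scr 1 to 3 and 11.8, 9.93 and 8.97 RPKM in sh4 1 to 3. The groups overlapped, with the lowest value in scr 2, and the log2 fold change was 0.34 (SE 0.36). With 1 tumor left out it lay between -0.0635 (without scr 2) and 0.694 (without scr 1). T cells express *Fas* as well, and T cell markers stood higher in the sh4 tumors, as given above. Their part in the *Fas* values was not tested.

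*Trp53* was at 31.8, 25.2 and 37.6 RPKM in scr 1 to 3 and 31.7, 13.5 and 24.2 RPKM in sh4 1 to 3. The sh4 tumors reached lower than the scr tumors, with overlap at sh4 1, and the log2 fold change was -0.50 (SE 0.31, limma adjusted p = 0.995). It was -0.77 without sh4 1 and -0.17 without sh4 2. *Mdm2* was at 6.32, 7.84 and 7.54 RPKM in scr 1 to 3 and 9.22, 4.02 and 6.59 RPKM in sh4 1 to 3, where sh4 1 was the highest and sh4 2 the lowest tumor (log2 fold change -0.18). All 7 genes of cell cycle arrest had negative log2 fold changes, between -0.63 for *Plk3* and -0.21 for *Btg2*, and none passed. Without sh4 2 they were 5 negative and 2 positive. *Cdkn1a* was at 27.7, 48.2 and 35.1 RPKM in scr 1 to 3 and 34.4, 21.5 and 33.2 RPKM in sh4 1 to 3. Its highest value was in scr 2 and its lowest in sh4 2, and the log2 fold change of -0.31 lay close to its standard error of 0.27. With 1 tumor left out it lay between -0.49 (without scr 1) and -0.09 (without sh4 2), and at -0.10 without scr 2. *Gadd45a* was at 38.6, 44.5 and 51.0 RPKM in scr 1 to 3 and 38.7, 25.4 and 36.7 RPKM in sh4 1 to 3 (log2 fold change -0.42, SE 0.21), the smallest unadjusted p of the 32 at 0.0814. *Ccng1* was at 42.5, 32.4 and 39.9 RPKM in scr 1 to 3 and 67.2, 17.0 and 25.2 RPKM in sh4 1 to 3, spread more widely among the sh4 tumors than among the scr tumors.

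The 13 genes of cell death had a median of 0.03 with 7 positive (9 with median-ratio scaling, 10 without sh4 2). *Aen* was the one gene of the 32 whose groups did not overlap, at 10.2, 14.4 and 13.9 RPKM in scr 1 to 3 and 14.6, 15.4 and 18.2 RPKM in sh4 1 to 3, with every sh4 tumor above every scr tumor (log2 fold change 0.32, SE 0.20, limma adjusted p = 0.995). Over all genes 4.19% lay above in this way and 4.98% below. *Bax* was the most abundant, at 76.6, 155 and 77.8 RPKM in scr 1 to 3 and 78.6, 107 and 117 RPKM in sh4 1 to 3, with its highest value in scr 2 (log2 fold change 0.03). *Phlda3* had the same high scr 2, at 22.1, 53.3 and 25.8 RPKM in scr 1 to 3 and 27.2, 29.8 and 33.2 RPKM in sh4 1 to 3, and *Trp53inp1* a high sh4 1, at 10.5, 4.50 and 9.99 RPKM in scr 1 to 3 and 24.4, 3.48 and 5.30 RPKM in sh4 1 to 3. *Pmaip1*, near 0 in cultured cells, was between 1.57 and 3.53 RPKM in the tumors (log2 fold change 0.28). Of the other cell death genes, *Ei24* and *Zmat3* had log2 fold changes of 0.15 and 0.10, and *Bbc3*, *Tnfrsf10b* and *Apaf1* ones of -0.23, -0.28 and -0.08.

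In the repair group *Ddb2* was at 9.44, 6.74 and 10.7 RPKM in scr 1 to 3 and 10.9, 12.4 and 9.98 RPKM in sh4 1 to 3 (log2 fold change 0.31) and *Rrm2b* at 3.04, 1.55 and 3.05 RPKM in scr 1 to 3 and 3.67, 0.906 and 1.24 RPKM in sh4 1 to 3 (log2 fold change -0.44). *Polk*, which followed the pattern of *Rrm2b* with sh4 1 highest and sh4 2 lowest, stood at -0.45 on the log2 scale, and leaving out sh4 1 or sh4 2 moved it to -0.91 or -0.05. *Xpc* had a log2 fold change of 0.05. The 6 genes of metabolism and stress lay between -0.30 for *Sesn2* and 0.07 for *Gdf15*, which lay between 0.0329 and 0.213 RPKM in the tumors.

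**Figure D3:**
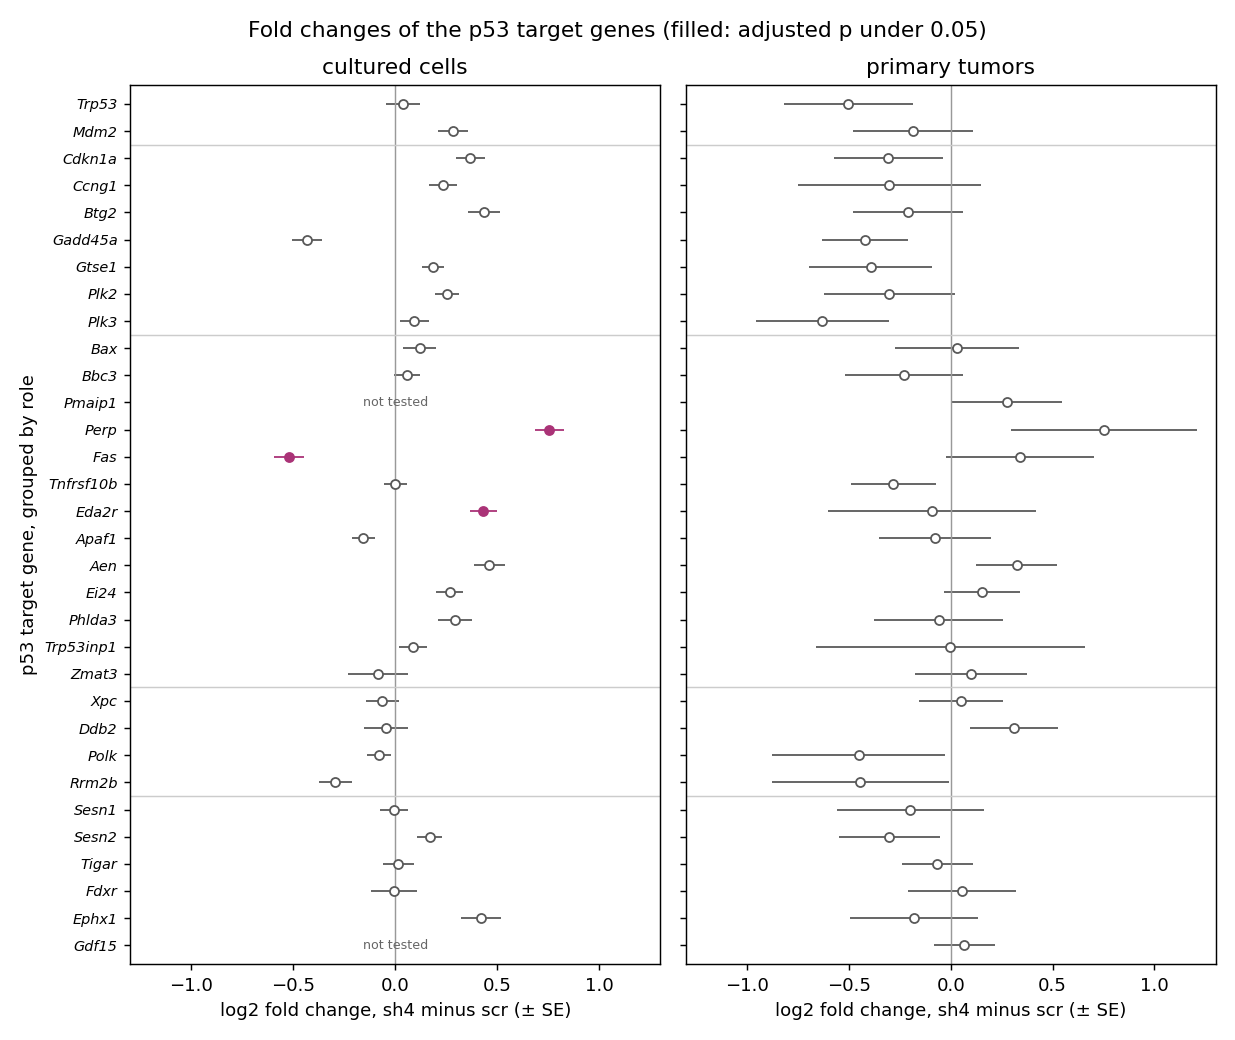
Log2 fold changes (sh4 minus scr, x axes) of the 32 p53 target genes (y axis, grouped by role) in cultured cells and in primary tumors, with bars of ± 1 SE from limma and filled points at an adjusted p under 0.05. Errors in the tumors are wider, up to 0.66 for *Trp53inp1*, and the 7 cell cycle arrest genes lie left of 0 in the tumors while 6 of them lie right of 0 in the cells (5 after rescaling to one sum).

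The spread among the tumors lay mainly between sh4 tumors 1 and 2. sh4 1 was the highest of the 6 tumors for 14 of the 32 genes (29.8% of all genes), and sh4 2 the lowest for 22 of 32 (38.5% of all genes). As deviations from the mean over the 6 tumors, the 32 genes had medians of 0.003, -0.053 and 0.146 in scr 1 to 3 and of 0.211, -0.514 and -0.007 in sh4 1 to 3 (log2 scale). Short and long transcripts also stood differently in these libraries. An index of this, taken as how far transcripts shorter than 1000 bases deviated relative to those longer than 4000 (difference of median deviations, log2 scale), stood at -0.182, 0.25 and -0.281 in scr 1 to 3 and at -0.318, 0.366 and 0.052 in sh4 1 to 3, so that the 2 sh4 tumors lay at opposite ends, and its part in the values was not tested beyond a fit with this index as a covariate, in which the median of the 32 was -0.0734.

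**Figure D4:**
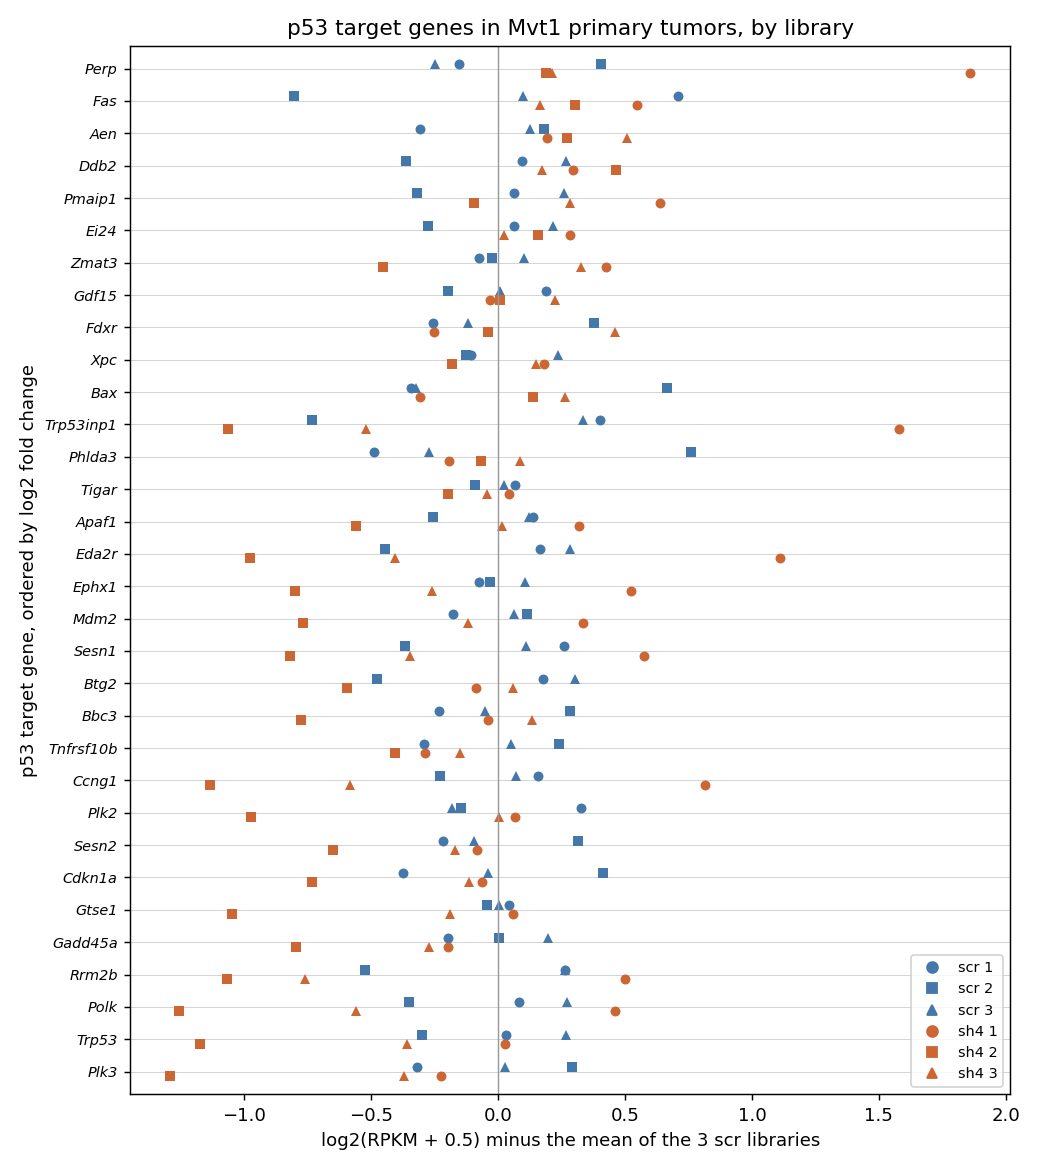
Values of the 32 p53 target genes in the 6 primary tumors, as log2(RPKM + 0.5) minus the mean of the 3 scr tumors (x axis), with genes ordered by log2 fold change (y axis). Each point is 1 tumor and equal symbols share an experiment; sh4 2 is the lowest tumor for 22 genes and sh4 1 the highest for 14.

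Within experiments the direction of the list changed. In experiment 1 the sh4 tumor was above its scr partner for 26 of the 32 genes (57.0% of all genes), with a median difference of 0.21 on the log2 scale. In experiment 2 it was above for 6 (42.1% of all genes; median -0.531), and in experiment 3 for 11 (41.2%; median -0.102). *Perp* differed by 2.02, -0.22 and 0.46 in experiments 1 to 3, *Cdkn1a* by 0.31, -1.15 and -0.08, and *Trp53inp1* by 1.18, -0.33 and -0.85. *Aen* and *Pmaip1* were higher in the sh4 tumor of all 3 experiments (6.25% of the list and 11.9% of all genes), and *Btg2*, *Tigar* and *Trp53* lower in all 3 (9.38% and 15.01%). With the experiment as a block, limma called 0 genes as well, with 0 of the 32 and 911 genes in all (6.75%) at an unadjusted p under 0.05. Without sh4 tumor 2 the median of the 32 turned from -0.14 to 0.0992, with 20 positive and 12 negative. Without sh4 tumor 1 it was -0.3004, and 7 of the 32 had an unadjusted p under 0.05, against 15.1% of all genes.

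**Figure D5:**
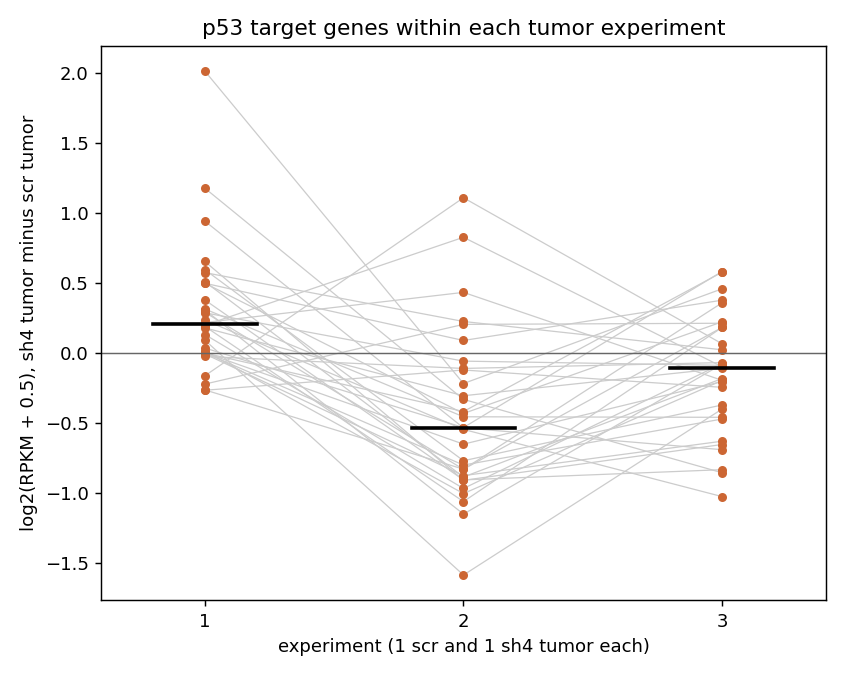
Difference between the sh4 and the scr tumor of each experiment in log2(RPKM + 0.5) (y axis) for the 32 p53 target genes in experiments 1 to 3 (x axis), with 1 point per gene, thin lines joining the points of a gene and bars at the medians of 0.21, -0.531 and -0.102. Most points lie above 0 in experiment 1 and below 0 in experiment 2.

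The lists around p53 had 0 genes called by limma in the tumors, and at an unadjusted p under 0.05 there were 0 regulators, 2 further targets, 1 cell cycle gene, 0 stress response genes and 2 immediate early genes (4.18% of all genes). The lists held 18, 25, 20, 12 and 10 tested genes in that order. Of 20 cell cycle genes of the p21 and DREAM list 16 had a negative log2 fold change (median -0.2951, and without sh4 2 14 negative and a median of -0.1159), and in 6 all sh4 tumors lay below all scr tumors (4.98% of all genes). *Aurka*, a mitotic kinase, was at 9.08, 9.78 and 9.82 RPKM in scr 1 to 3 and 6.07, 5.16 and 6.89 RPKM in sh4 1 to 3 (log2 fold change -0.63), and *Ccnb2*, or cyclin B2, had one of -0.40. Of 25 further p53 targets 18 were negative (14 with quantile normalization or median-ratio scaling, 12 without sh4 2), and those with the smallest p were *Tap1*, a peptide transporter of antigen presentation that interferon also induces (log2 fold change 0.77), and *Steap3*, a ferrireductase (-0.71). *Rchy1*, a ubiquitin ligase of p53, and *Chek2* led the 18 regulators at -0.42 and -0.40. The immediate early genes *Ier3* and *Junb* stood at -0.90 and -0.69, and the stress response genes *Sesn2* and *Ddit3* at -0.30 and 0.30.

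Side by side, 30 of the 32 genes were tested in both tables, and 9 had the same sign in both. *Aen*, *Ei24*, *Perp* and *Bax* were positive in both and *Gadd45a*, *Apaf1*, *Polk*, *Rrm2b* and *Sesn1* negative in both. Of these, *Bax*, *Apaf1* and *Sesn1* in the tumors and *Sesn1* in the cells could change sign when 1 library was left out. The tumor split over the 32 genes turned to 20 positive and 12 negative without sh4 2. The share of all genes with the same sign in both was not counted. *Aen* was the one gene whose groups stood apart on the same side in both. *Cdkn1a* had a log2 fold change of 0.37 in the cells and of -0.31 in the tumors. The tables come from different libraries (total RNA and mRNA) and were scaled separately, so the difference between them was not tested.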

How the data were processed

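Cell values are FPKM and tumor values RPKM, both computed by the authors. Tumor mRNA reads were trimmed with Trimmomatic and aligned with Tophat to mm9 and Ensembl v70, per the labels. For the cells the processing notes list STAR 2.7 and TopHat2 2.1.0 without roles, and the counting program is not given in the sources used here. Of 290541 rows in the cell table, 239874 assembled loci were left out. Values were compared as log2(value + 0.5), a scale that understates changes of low genes, for genes with a mean of at least 0.1, with limma 3.58.1 (variance trend) in R 4.3.3 and Benjamini-Hochberg adjustment over all genes of a table (threshold 0.05), after tests on simulated data. No replicate block was used. Tumor numbers mark shared experiments per the labels, and same-number correlations after removal of group means were 0.138, 0.33 and -0.117. For scr 3 the highest correlation with an sh4 tumor of another number was 0.293. All 32 genes are named, and of each further list the called genes (at most 4) or the 2 with the smallest p, except that a called gene of the further p53 targets is not reported here. Members and lists were chosen with earlier results of these data known. Element matches came from the NCBIM37 (mm9) sequence.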

Additional observations from a re-analysis of the deposited data

How the results depend on the processing

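Depth is unknown in both tables, and 3 libraries a group limit the precision. In the tumors 0 p53 genes and 0 genes in all were called under every setting tried. In the cells the p53 genes called and all genes called were 3 and 270 in the main analysis. They were 1 and 77 with no filter on low values, 7 and 408 for genes with a mean of at least 1, 10 and 1223 with quantile normalization and 12 and 1230 with median-ratio scaling. Limma without the trend called 171 genes. Settings chosen after seeing the data were rescaling to one sum, the length covariate, and testing the 16385 genes with a symbol alone. Rescaling called 2 and 150, with medians of -0.0095 over the p53 genes and -0.0799 over all genes. The fit over genes with a symbol was seen before the main analysis and called 7 p53 genes of 491. In that fit *Cdkn1a*, *Btg2*, *Aen* and *Gadd45a* passed beside *Perp*, *Eda2r* and *Fas* (limma adjusted p = 0.0475, 0.0445, 0.0338 and 0.0364 for the first 4). With the plate number as a replicate block 0 and 0 were called. Same-number plates had correlations of -0.061, -0.075 and -0.073. Whether plates of one number were handled together cannot be told from these values. With the experiment number as a replicate block the tumors gave 0 calls and the same median of -0.136. Leaving out 1 plate gave 0 to 4 p53 genes and 2 to 248 genes. The causes were not tested.

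Small differences changed sign. In the tumors *Trp53inp1* was at 0.0156 with a pseudocount of 1, 0.1129 with quantile normalization, 0.0694 with median-ratio scaling and 0.3353 with the length covariate, which also gave *Bax* -0.0961, *Eda2r* 0.1576, *Apaf1* 0.0356 and *Fdxr* -0.0137, and median-ratio scaling gave *Phlda3* 0.0192. In the cells quantile normalization gave *Tnfrsf10b* -0.0776, *Sesn1* 0.0362 and *Fdxr* 0.0236, median-ratio scaling *Tnfrsf10b* -0.0211 and *Tigar* -0.0035, and rescaling *Trp53* -0.0656, *Plk3* -0.0025, *Bbc3* -0.0337, *Tnfrsf10b* -0.1048, *Trp53inp1* -0.0166 and *Tigar* -0.0762. With 1 library left out, the cell fold changes that crossed 0 ranged over *Ddb2* -0.158 to 0.0256, *Fdxr* -0.1153 to 0.0815, *Sesn1* -0.0253 to 0.0278, *Tigar* -0.0296 to 0.0758, *Tnfrsf10b* -0.039 to 0.0274, *Trp53* -0.03 to 0.0909, *Xpc* -0.1104 to 0.0029 and *Zmat3* -0.2053 to 0.0836. With 1 library left out, the tumor fold changes that crossed 0 ranged over *Apaf1* -0.2729 to 0.1667, *Bax* -0.142 to 0.3639, *Bbc3* -0.4081 to 0.0478, *Ccng1* -0.8586 to 0.1162, *Eda2r* -0.6927 to 0.3509, *Ephx1* -0.5313 to 0.1309, *Fas* -0.0635 to 0.694, *Fdxr* -0.1468 to 0.2433, *Gdf15* -0.0317 to 0.1618, *Mdm2* -0.4438 to 0.1081, *Phlda3* -0.3022 to 0.322, *Plk2* -0.4849 to 0.0349, *Sesn1* -0.5841 to 0.1129, *Tigar* -0.1206 to 0.0005, *Trp53inp1* -0.7919 to 0.5306, *Xpc* -0.0167 to 0.1663 and *Zmat3* -0.0647 to 0.3751.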
